A study of Arabidopsis thaliana with 8 samples.

Results

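Starch synthesis and breakdown were followed through 10 genes in rosette leaves of the *kaku4* mutant and of wild-type (WT) *Arabidopsis thaliana*. The genes were chosen by locus for the steps they encode and not by a rule on their values, but with earlier results of these data known. They were the starch-phosphorylating enzymes *SEX1* (AT1G10760, also called *GWD*) and *PWD* (AT5G26570), the beta-amylases *BAM1* (AT3G23920) and *BAM3* (AT4G17090), the debranching enzyme *ISA3* (AT4G09020), the glucanotransferases *DPE1* (AT5G64860) and *DPE2* (AT2G40840), the maltose exporter *MEX1* (AT5G17520), the granule-bound starch synthase *GBSS1* (AT1G32900), and *APL3* (AT4G39210), a subunit of ADP-glucose pyrophosphorylase. All 10 were among the 23050 loci with a value. They were measured by RNA-seq in 3 libraries from *kaku4* and 3 from WT of the Col-0 accession, at 6 weeks of age, each from a separate sample of rosette leaves, and the study describes the replicates as independent biological ones. The *kaku4* plants are a single T-DNA insertion line in *KAKU4*, a gene for a plant-specific protein of the nuclear lamina, and the labels name the allele *kaku4*-2. The libraries analysed here include no complemented line, so in them the genotype and anything else carried by that line cannot be told apart. Outside these libraries, the study reports that complemented lines rescued the early senescence and, by qRT-PCR, the levels of most selected transcripts. It also reports early senescence in CRISPR/Cas9 mutants of *KAKU4*. None of the 10 starch genes was among the selected transcripts. The study asked which genes respond to knockdown of *KAKU4* in leaves that age early. It describes some *kaku4* leaves as already yellow at this age, so genotype and leaf state cannot be told apart either. Both genotypes grew in long days, and the hour of harvest is not given in the sources used here.

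Leaves store part of the carbon they fix by day as starch granules in the chloroplast and break the granules down at night. On the way in, ADP-glucose pyrophosphorylase makes ADP-glucose, and starch synthases, branching enzymes and isoamylases build it into amylopectin, while GBSS1 makes amylose inside the granule. On the way out, GWD and then PWD add phosphate to the granule surface, which opens it to beta-amylases and ISA3. The maltose released leaves the chloroplast through MEX1 and is metabolised in the cytosol by DPE2, whereas DPE1 recycles short glucans inside the chloroplast. Transcripts of many breakdown genes are known to follow the circadian clock.

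The sequence around the annotated start of these genes is shown first, since it holds the letters by which clock factors are known to bind. Each line gives 110 bases from RefSeq (TAIR10.1), 80 before the annotated start of the gene and 30 from it, read 5′ to 3′ on the gene's own strand. Capitals mark the evening element in *SEX1*, *PWD*, *ISA3* and *DPE1*, 2 G-boxes in *DPE1* and a CCA1-binding site in *DPE2*. *APL3* and *GBSS1* are shown as the members on the synthesis side, and neither window holds any of the motifs searched.
SEX1 at chr1:3590899-3591008, minus strand: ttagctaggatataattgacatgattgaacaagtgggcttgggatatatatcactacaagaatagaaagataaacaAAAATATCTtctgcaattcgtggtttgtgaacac
PWD at chr5:9261399-9261508, plus strand: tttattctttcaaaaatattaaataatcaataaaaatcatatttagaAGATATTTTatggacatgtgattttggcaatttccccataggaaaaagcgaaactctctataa
ISA3 at chr4:5783829-5783938, plus strand: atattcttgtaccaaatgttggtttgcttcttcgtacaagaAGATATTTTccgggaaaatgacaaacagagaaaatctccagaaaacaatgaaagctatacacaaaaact
DPE1 at chr5:25928850-25928959, minus strand: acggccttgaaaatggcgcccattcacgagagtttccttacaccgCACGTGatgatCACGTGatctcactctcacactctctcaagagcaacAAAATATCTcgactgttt
DPE2 at chr2:17044852-17044961, plus strand: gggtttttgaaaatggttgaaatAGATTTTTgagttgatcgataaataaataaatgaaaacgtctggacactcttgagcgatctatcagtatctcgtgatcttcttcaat
APL3 at chr4:18259467-18259576, plus strand: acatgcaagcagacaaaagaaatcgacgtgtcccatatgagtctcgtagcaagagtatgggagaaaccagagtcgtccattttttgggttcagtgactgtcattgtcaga
GBSS1 at chr1:11923837-11923946, minus strand: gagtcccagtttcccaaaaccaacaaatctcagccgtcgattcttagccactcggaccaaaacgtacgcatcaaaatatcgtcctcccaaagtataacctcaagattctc

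The evening element, AAAATATCT, was present on either strand within 300 bases (250 before the annotated start and 50 from it) of 4 of the 10 genes and of 2.81% of 27561 promoters of the same length. In *SEX1* it began 4 bases before the start, in *PWD* 33 and in *ISA3* 39 bases before it, and in *DPE1* 12 bases after it. In *PWD* and *ISA3* it lay in reverse. The CCA1-binding site, AAAAATCT, was found in 1 of the 10 genes (7.88% of all promoters), the G-box, CACGTG, in 2 (7.65%), with a copy in *ISA3* that starts 42 bases after the gene start, and the W-box, TTGACC, in 0 (14.1%). No match overlapped another. A match is a description of the letters and no evidence that a factor bound there. The annotated start is the outermost one of the RefSeq gene, and *SEX1* has 3 annotated transcripts.

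Values are FPKM (fragment numbers divided by the length of the transcript and by library size) as deposited. *KAKU4* itself was at 0.739, 1.26 and 0.943 FPKM in the *kaku4* libraries and at 6.41, 5.45 and 5.71 FPKM in the WT libraries (log2 fold change -2.49, adjusted p = 0.00019, limma with Benjamini-Hochberg adjustment), so the libraries matched their labels. FPKM summed over all loci to between 953041 and 1188694 in *kaku4* and between 1412227 and 1559944 in WT, and counts per gene are unknown. Chloroplast-encoded genes summed to 30587 FPKM in *kaku4* replicate 1 and 44363 FPKM in WT replicate 1, against 499 to 945 FPKM in the other libraries. The leaf identity of the samples was visible in the mesophyll markers, which summed to between 20530 and 64410 FPKM in *kaku4* and between 16270 and 21190 FPKM in WT. One of those 5 markers, *LHCB1.3*, is listed at 0 in 5 libraries and at 40370 FPKM in *kaku4* replicate 2. The 6 guard cell markers summed to 8.31 to 14.2 FPKM in *kaku4* and 10.3 to 13.4 FPKM in WT. None of them was called, where 16.4% of all genes tested were called higher and 11.5% lower. By the adjusted p alone 1 was lower, *MYB60* (log2 fold change -0.78, adjusted p = 0.019, limma). The 3 root markers summed to at most 0.0161 FPKM in *kaku4* and 0.247 FPKM in WT. The 5 anther markers summed to 1.28 to 2.07 FPKM in *kaku4* and 0.883 to 1.14 FPKM in WT. Most of the anther sum was *LAP6*, at 1.54, 1.28 and 1.98 FPKM in *kaku4* and 1.11, 0.820 and 0.864 FPKM in WT. It was the only anther marker tested (log2 fold change 0.71, adjusted p = 0.0393, limma). The 7 flower markers summed to 0.774 to 0.963 FPKM in *kaku4* and 2.64 to 3.73 FPKM in WT, with 5 of 6 tested called lower (11.5% of all genes tested). With a trend on transcript length removed, as described below, 3 of these 6 markers were called lower (5.21% of all genes tested). Their part in the results below was not tested. In whole leaves, fewer cells of a type and less RNA per cell cannot be told apart.

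On the deposited scale the breakdown genes and *APL3* were mostly higher in *kaku4*, while *MEX1* and *GBSS1* were not. A gene was called changed where limma gave an adjusted p of at most 0.05 and a log2 fold change, taken on log2(FPKM + 0.1), of at least 1 in size. By that rule 4 of the 10 genes (*SEX1*, *PWD*, *DPE2* and *APL3*) rose in *kaku4*, 0 fell and 6 were not called, where 16.4% of the 20618 genes tested were called higher and 11.5% lower. By the adjusted p alone 7 were higher and 0 lower, against 28.6% and 28.3% of all genes. The median log2 fold change was 0.80 over the 10 genes and 0.00 over all genes tested. Every *kaku4* library lay above every WT library for 7 of the genes (33.5% of all genes tested) and below for 2 (31.3%). All 10 genes passed the filter on low values, a mean of 0.1 FPKM. Together they summed to 159, 198 and 168 FPKM in the *kaku4* libraries and to 118, 118 and 120 FPKM in the WT libraries. A limit bears on all of these values: genes of long transcripts were higher in *kaku4* as a class, and all 10 starch genes are longer than the median gene tested. With the length trend removed none of the 10 was called in either direction, as described gene by gene below.

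**Figure D1:**
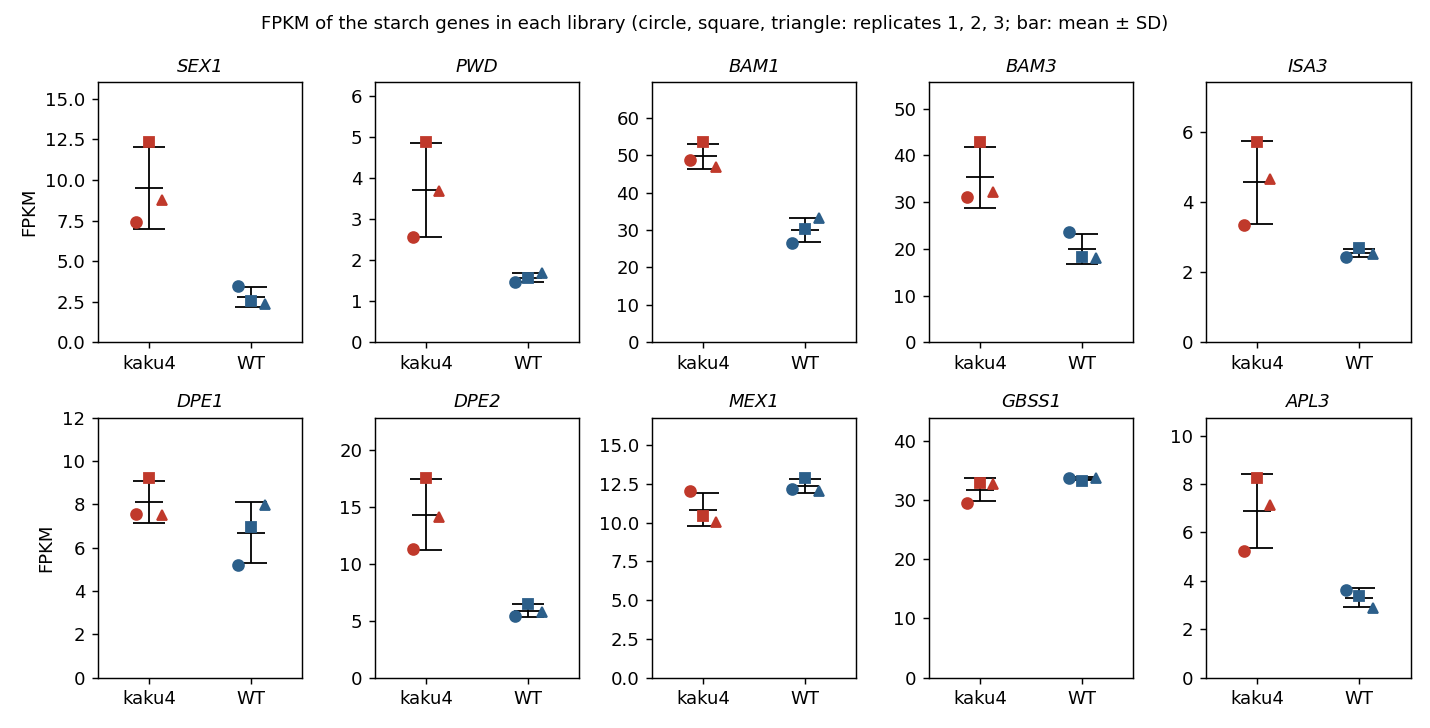
FPKM (vertical axes, each from 0) of the 10 starch genes in the 3 *kaku4* and the 3 WT libraries, with a symbol for each replicate and bars for the mean ± SD. *SEX1*, *PWD*, *BAM1*, *BAM3*, *ISA3*, *DPE2* and *APL3* have all 3 *kaku4* libraries above all 3 WT libraries, *DPE1* overlaps, and *MEX1* and *GBSS1* lie slightly lower in *kaku4*.

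*SEX1*, which encodes the glucan, water dikinase that starts granule breakdown, changed most of the 10. It was at 7.42, 12.3 and 8.79 FPKM in the *kaku4* libraries and at 3.49, 2.53 and 2.36 FPKM in the WT libraries. The lowest *kaku4* library was still above the highest WT library, and *kaku4* replicate 2 was the highest. The log2 fold change was 1.72 ± 0.23 (SE, n = 3 libraries per genotype) with an adjusted p of 0.000697 (limma, Benjamini-Hochberg). *PWD*, the dikinase that acts on glucan already phosphorylated by GWD, was the least abundant of the 10. It was at 2.58, 4.87 and 3.68 FPKM in *kaku4* and at 1.47, 1.58 and 1.69 FPKM in WT, again without overlap, with a log2 fold change of 1.14 ± 0.25 and an adjusted p of 0.00493. Without *kaku4* replicate 2 the *PWD* value was 0.93, below the fold limit. Among the 500 genes of nearest transcript length the median log2 fold change was 1.32 beside *SEX1* (5040 nucleotides) and 1.15 beside *PWD* (3898 nucleotides). With the length trend removed *SEX1* was at 0.41 (adjusted p = 0.103) and *PWD* at 0.04 (adjusted p = 0.851), and neither passed.

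The beta-amylases release maltose from the ends of the opened glucan chains. *BAM3*, the main catalytic form of the night in mesophyll cells (listed as *CT-BMY* in RefSeq), was at 31.1, 42.8 and 32.1 FPKM in *kaku4* and at 23.6, 18.2 and 18.0 FPKM in WT. *BAM1*, a chloroplast form known for its roles in guard cells and under stress, was at 48.7, 53.4 and 46.9 FPKM in *kaku4* and at 26.6, 30.3 and 33.1 FPKM in WT. Neither gene overlapped between the genotypes, and both passed the adjusted p without reaching the fold limit. The log2 fold change was 0.82 ± 0.17 for *BAM3* (adjusted p = 0.00413) and 0.73 ± 0.13 for *BAM1* (adjusted p = 0.00191, limma). *BAM3* stood 0.53 ± 0.16 higher with the length trend removed (adjusted p = 0.0299), whereas *BAM1* was at 0.16 there (adjusted p = 0.306). With a trend on GC content removed instead, *BAM3* was at 0.41 and did not pass (adjusted p = 0.0695), whereas *BAM1* was at 0.33 (adjusted p = 0.0299). Without both libraries numbered 1, which have the high chloroplast values, *BAM3* was at 1.03 and would be called. Under quantile normalization *BAM1* (1.03) and *BAM3* (1.04) were called while *PWD* (0.78) and *APL3* (0.77) were not, so the count of 4 was then made up of other genes in part. *BAM3* overlaps a neighbouring gene, AT4G17085, by 13 bases and a long non-coding RNA, AT4G06665, by 518 bases, both on the opposite strand, and whether strand was used in the counting is not given in the sources used here. No other member overlaps an annotated gene.

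The balance between both beta-amylases was read from their ratio. The log2 ratio of *BAM1* to *BAM3* within a library, which no scaling of whole libraries can change, was 0.65, 0.32 and 0.55 in *kaku4* and 0.17, 0.73 and 0.88 in WT. The genotypes overlapped, and the difference of -0.09 had an exact two-sided permutation p of 0.7, where 3 against 3 libraries cannot give a p below 0.1. The difference was -0.37 with the length trend removed and also -0.37 without both libraries numbered 1. With single libraries left out in turn it lay between -0.30 (without WT replicate 1) and 0.052 (without WT replicate 3), and it was 0.0030 without *kaku4* replicate 2, so neither its size nor its sign is fixed by these libraries.

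*ISA3*, the isoamylase that removes branches left by the beta-amylases, was at 3.34, 5.72 and 4.66 FPKM in *kaku4* and at 2.44, 2.69 and 2.52 FPKM in WT. The genotypes did not overlap, and the log2 fold change was 0.79 ± 0.22 with an adjusted p of 0.0143 (limma). Genes of its length (2746 nucleotides) had a median of 0.77, and *ISA3* was at 0.09 with the trend removed (adjusted p = 0.679).

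After the granule, maltose is handled by 2 disproportionating enzymes and a transporter, of which *DPE2* alone was called. *DPE2*, the cytosolic glucanotransferase that uses the exported maltose, was at 11.3, 17.6 and 14.1 FPKM in *kaku4* and at 5.41, 6.47 and 5.80 FPKM in WT. It rose without overlap between the genotypes, with a log2 fold change of 1.25 ± 0.18 and an adjusted p of 0.000933 (limma). At its length of 3409 nucleotides the median of like genes was 1.05, and with the trend removed *DPE2* was at 0.29 (adjusted p = 0.072). *DPE1*, the plastid enzyme that recycles maltotriose, was at 7.56, 9.23 and 7.51 FPKM in *kaku4* and at 5.19, 6.94 and 7.98 FPKM in WT. These ranges overlapped, and the 95% interval of its log2 fold change ran from -0.15 to 0.72 around 0.29 (adjusted p = 0.228). *MEX1* (listed as *RCP1* in RefSeq), through which maltose leaves the chloroplast, was at 12.05, 10.4 and 10.03 FPKM in *kaku4* and at 12.2, 12.9 and 12.06 FPKM in WT. Every *kaku4* library was below every WT library, but in the nearest pair by a margin far smaller than the spread within either genotype. The log2 fold change of *MEX1* was -0.19, with a 95% interval from -0.49 to 0.11 (adjusted p = 0.235). It was -0.55 with a trend on GC content removed (adjusted p = 0.0115) and -0.39 with libraries centred on their median (adjusted p = 0.0383), both lower by the adjusted p. It was 0.32 where FPKM, without chloroplast and mitochondrial genes, were rescaled to the same sum in each library (adjusted p = 0.107). The differences between these 3 genes were not tested.

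Of the 2 members on the synthesis side, *APL3* was called higher and *GBSS1* was not called, and the difference between them was not tested. *GBSS1*, which makes amylose, was at 29.5, 32.9 and 32.7 FPKM in *kaku4* and at 33.8, 33.3 and 33.8 FPKM in WT. The genotypes did not overlap, yet the gap between the nearest libraries was small, and the log2 fold change of -0.09 ± 0.11 did not pass (adjusted p = 0.537, limma). It was 0.43 under rescaling to the same sum (adjusted p = 0.0362), higher by the adjusted p there. It was 0.18 under quantile normalization (adjusted p = 0.270) and -0.49 with a trend on GC content removed (adjusted p = 0.00537). *GBSS1* departed most downwards from genes of its own length (2292 nucleotides), whose median was 0.43. With the trend removed it stood 0.51 ± 0.09 lower in *kaku4* (adjusted p = 0.0045), with levels of 4.796, 4.69 and 4.82 on the log2 scale in *kaku4* and 5.34, 5.23 and 5.28 in WT. *APL3*, a large subunit of ADP-glucose pyrophosphorylase known to respond to sugar, was at 5.23, 8.26 and 7.15 FPKM in *kaku4* and at 3.64, 3.39 and 2.89 FPKM in WT. It did not overlap between genotypes, and at 1.02 ± 0.20 (adjusted p = 0.00339) it stood just past the fold limit. *APL3* fell below that limit without *kaku4* replicate 2 (0.87), without *kaku4* replicate 3 (0.98) and without WT replicate 3 (0.92). With the trend removed it was the gene with the highest value of the 10, at 0.75 ± 0.17 (adjusted p = 0.0111), while genes of its length (2072 nucleotides) had a median of 0.31 on the deposited scale.

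The large subunits *APL1* to *APL4* can be set against each other within a library. *APL3* made up 7.28%, 8.11% and 7.50% of their summed FPKM in *kaku4* and 5.63%, 3.89% and 3.76% in WT. All 3 *kaku4* libraries were above all 3 WT libraries, and the difference of 3.21 percentage points had an exact two-sided permutation p of 0.1, the smallest that this design allows. With the length trend removed the difference was 2.25 points. *APL1*, the main leaf subunit, made up 86.4% to 87.8% of the sum in *kaku4* and 87.2% to 91.7% in WT. The log2 fold changes of *APL1* (0.18), *APL2* (0.30) and *APL4* (0.03) did not pass, with adjusted p values of 0.427, 0.17 and 0.926 (limma).

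The length trend ran through all genes. Across the 20464 genes with a known transcript length, log2 fold change and length had a Spearman correlation of 0.587, a description across genes that share their 6 libraries. The correlation of log2 fold change with GC content was 0.343. When genes were split by length into 10 equal bins, the median log2 fold change was -0.85 in the bin of the shortest genes and 1.16 in that of the longest, from 3059 nucleotides up. Among the 10 starch genes, which span 1747 to 5040 nucleotides against a median of 1688 for all genes, the correlation of log2 fold change and length was 0.758, and 0.152 with the trend removed. The trend also followed single libraries. In the bin of the longest genes the median deviation from the gene's own mean was 0.28, 0.87 and 0.58 on the log2 scale in the *kaku4* libraries and -0.60, -0.52 and -0.59 in the WT libraries. *kaku4* replicate 2, where this value was highest, was also the highest *kaku4* library for 9 of the 10 starch genes. *kaku4* replicate 1, where this value was lowest in *kaku4*, was the lowest for 7. The medians of all genes put these *kaku4* libraries highest and lowest in every bin from 1689 nucleotides up, which hold all 10 members. In WT, replicates 1, 2 and 3 were the highest for 4, 3 and 3 of the 10. The share of all genes with these patterns was not computed. Without *kaku4* replicate 2, 2 of the 10 genes (*SEX1* and *DPE2*) were called higher. The share of all genes called without that library was not computed.

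**Figure D2:**
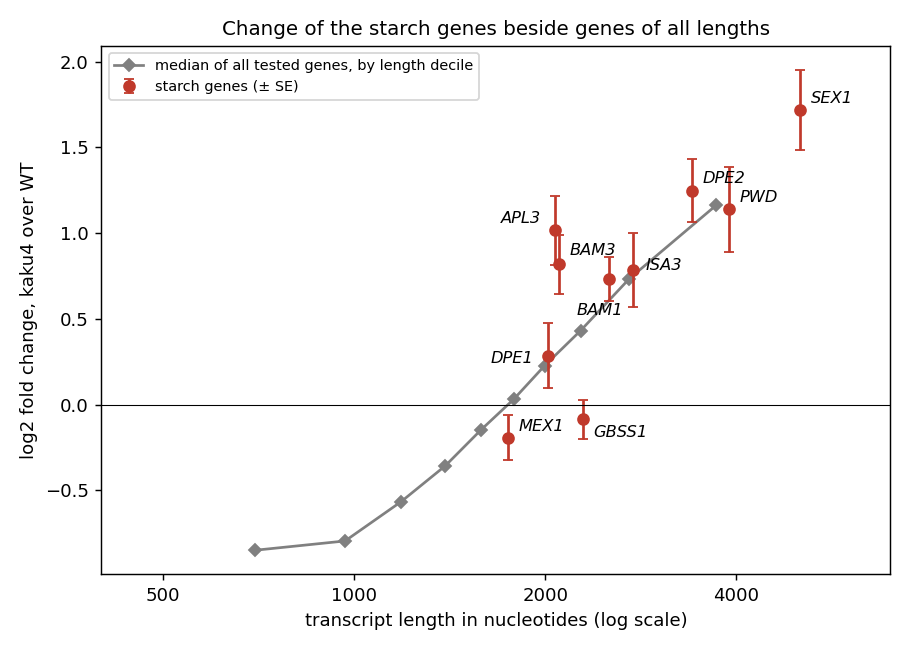
Log2 fold change of *kaku4* over WT (vertical axis) against transcript length in nucleotides (horizontal axis, log scale) for the 10 starch genes (red, ± SE) and for the median of all genes tested in each of 10 bins of length (grey). *BAM1*, *ISA3* and *DPE1* lie near the grey line, *APL3* and *BAM3* above it and *GBSS1* below it.

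With that trend removed, 7.77% of all genes tested were called higher and 5.21% lower, and 0 of the 10 starch genes in either direction. By the adjusted p alone, where 20.2% of all genes were higher and 20.0% lower, 2 starch genes were higher (*BAM3* and *APL3*) and 1 was lower (*GBSS1*). The median over the 10 was then 0.12. The removal takes out whatever change the genes of one length share, so a change of the leaf that follows transcript length and an effect of RNA or library handling cannot be told apart here.

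**Figure D3:**
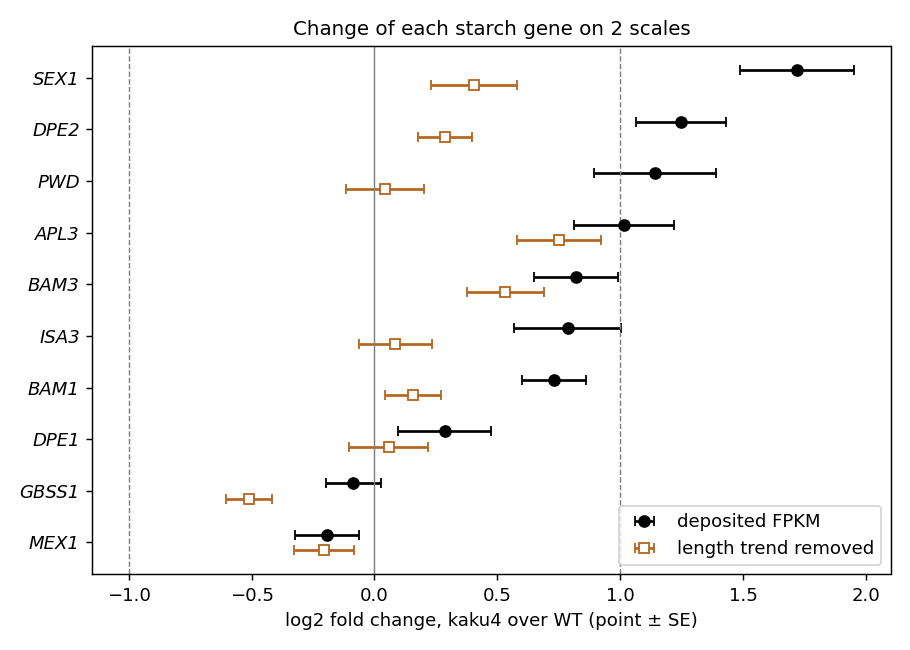
Log2 fold change of *kaku4* over WT (horizontal axis, point ± SE, n = 3 libraries per genotype) of the 10 starch genes from the deposited FPKM (black) and with the length trend removed (open squares). Dashed lines mark a log2 fold change of 1 in either direction, which *SEX1*, *DPE2*, *PWD* and *APL3* pass on the deposited scale and no gene passes with the trend removed.

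The order of the 10 genes by level (FPKM, which is per length) was not the same in the genotypes on the deposited scale. In *kaku4* the most abundant was *BAM1*, with a mean of 49.7 FPKM, followed by *BAM3* at 35.3 and *GBSS1* at 31.7 FPKM, and in WT *GBSS1* led at 33.6 FPKM, before *BAM1* at 29.98 and *BAM3* at 19.9 FPKM. *BAM3* and *GBSS1* overlapped in *kaku4*, whereas in WT none of these 3 genes overlapped its neighbour. *DPE2* came after these 3 in *kaku4* at 14.3 FPKM, overlapping *MEX1* at 10.8 FPKM, and in WT it came after *MEX1* and *DPE1*, at 5.89 FPKM and overlapping *DPE1* at 6.70 FPKM. *SEX1* averaged 9.51 FPKM in *kaku4* and 2.79 FPKM in WT, where it overlapped *APL3* and *ISA3*. *PWD* was last in both genotypes, at 3.71 FPKM in *kaku4* and 1.58 FPKM in WT. These overlaps depend on the scale. With the length trend removed, log2 levels of *BAM3* (4.86 to 5.17) and *GBSS1* (4.69 to 4.82) were apart in *kaku4*. In WT those of *GBSS1* (5.23 to 5.34) and *BAM1* (5.06 to 5.33) then overlapped. *DPE2* was at 3.28, 3.41 and 3.345 in *kaku4*, where *MEX1* was at 3.63, 3.35 and 3.33. In WT *DPE2* was at 2.97, 3.15 and 3.05, and *DPE1* at 2.56, 2.89 and 3.10.

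The rest of the synthesis pathway was read from 21 further loci, of which 20 passed the filter. On the deposited scale 6 rose, 1 fell and 13 were not called, beside 16.4% of all genes called higher and 11.5% lower. By the adjusted p alone 11 were higher and 1 lower, beside 28.6% and 28.3%, and the list's median was 0.59. After removal of the length trend 2 were called higher and 1 lower, beside 7.77% and 5.21% of all genes, shares near which 2 and 1 of 20 lie, and the median was 0.03. *APS1*, the catalytic small subunit that partners APL3, was at 63.4, 91.6 and 74.0 FPKM in *kaku4* and at 34.0, 32.6 and 32.3 FPKM in WT. It rose by 1.19 on the log2 scale (adjusted p = 0.000553) and by 1.06 with the trend removed (adjusted p = 0.000799), past both limits on both scales. *GPT2*, a glucose 6-phosphate transporter of the plastid envelope known to be induced by sugar, had the largest change of the list. It was at 15.45, 21.3 and 15.45 FPKM in *kaku4* and at 1.86, 2.27 and 2.46 FPKM in WT, with a log2 fold change of 2.92 on the deposited scale and 2.93 with the trend removed (adjusted p = 4.4e-05 in both).

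The other synthesis genes that rose on the deposited scale act in building or starting the granule. The starch synthases *SS3* (1.22) and *SS4* (1.32) and the branching enzyme *SBE2.1* (1.01) were called there and were at 0.17, 0.37 and 0.28 with the trend removed, where none passed. *PTST3*, which takes part in granule initiation, was at 1.14 and, with the trend removed, at 0.90 (adjusted p = 0.00437). The single gene that fell was *PTST1*, whose protein brings GBSS1 to the granule. It was at 3.57, 2.64 and 3.32 FPKM in *kaku4* and at 8.13, 7.03 and 6.70 FPKM in WT, without overlap. Its log2 fold change was -1.18 (adjusted p = 0.00096) and, with the trend removed, -0.92 (adjusted p = 0.00308). With the trend removed the call for a lower gene went to *SS5*, a synthase-like protein of granule initiation (-1.03, and -0.42 on the deposited scale, adjusted p = 0.0695). The isoamylases that trim amylopectin were at 0.15 for *ISA1* (adjusted p = 0.549) and 0.74 for *ISA2* (adjusted p = 0.0112). With the trend removed *ISA1* was at -0.62 (adjusted p = 0.016) and *ISA2* at -0.11 (adjusted p = 0.543).

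The breakdown list held 20 further loci, all tested. On the deposited scale 6 rose, 0 fell and 14 were not called, beside the same 16.4% and 11.5% of all genes. By the adjusted p alone 10 were higher and 2 lower, beside 28.6% and 28.3%, and the median was 0.68. With the trend removed 3 were called higher and 0 lower, beside 7.77% and 5.21%, and the median was 0.00. Those 3, *PHS1*, *BAM5* and *AMY1*, were called on both scales. *PHS1*, the plastid glucan phosphorylase, was at 15.7, 24.6 and 18.2 FPKM in *kaku4* and at 4.43, 5.12 and 5.01 FPKM in WT, a log2 fold change of 1.96 (adjusted p = 0.000217) and of 1.08 with the trend removed (adjusted p = 0.00055). *BAM5* was at 0.994, 1.49 and 1.38 FPKM in *kaku4* and at 0.116, 0.113 and 0.145 FPKM in WT, a log2 fold change of 2.61 (2.08 with the trend removed) from a low level. *AMY1* was at 10.07, 12.6 and 13.3 FPKM in *kaku4* and at 4.80, 4.58 and 5.63 FPKM in WT, a log2 fold change of 1.24 (1.34 with the trend removed). Unlike the chloroplast enzymes, BAM5 and AMY1 are known to act outside the chloroplast, away from leaf starch granules.

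Closer to the members, *BAM2*, a chloroplast beta-amylase of low activity, rose by 1.12 and was at 0.88 with the trend removed (adjusted p = 0.00185). *PHS2*, the cytosolic phosphorylase that works after DPE2, was at 1.26 on the deposited scale and at 0.38 with the trend removed (adjusted p = 0.0379), and the limit dextrinase *LDA*, a debranching enzyme that overlaps ISA3 in function, was at 1.20 and 0.23. The glucan phosphatase *SEX4*, which removes the phosphate that GWD and PWD add, did not pass on either scale (0.09 and 0.03). Its relative *LSF1* was at 0.74 (adjusted p = 0.0134) and 0.26, and *AMY3*, the chloroplast alpha-amylase, at 0.84 (adjusted p = 0.00353) and -0.03. *BAM4*, a form without catalytic activity, was at -0.19 (adjusted p = 0.233) and -0.40 (adjusted p = 0.0283). The genes lower by the adjusted p alone on the deposited scale were the phosphatase *LSF2* (-0.90) and *ESV1* (-0.81), a granule protein known to hold back breakdown. With the trend removed *LSF2* was at -0.35 and no longer passed (adjusted p = 0.136), and *ESV1* was at -0.84 (adjusted p = 0.00149).

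**Figure D4:**
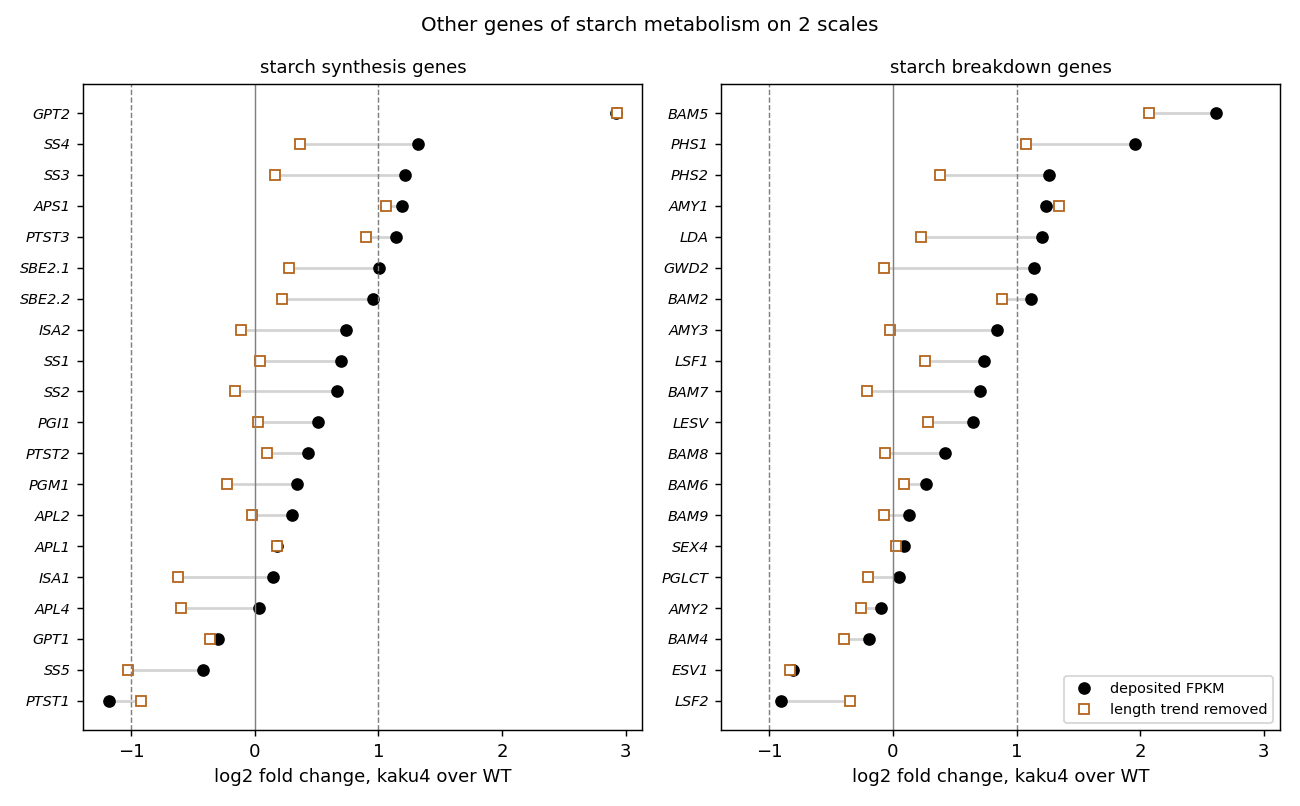
Log2 fold change of *kaku4* over WT (horizontal axes) of 20 tested synthesis genes (left) and 20 tested breakdown genes (right), from the deposited FPKM (filled circles) and with the length trend removed (open squares). *GPT2* and *APS1* on the left and *BAM5*, *PHS1* and *AMY1* on the right stay past a log2 fold change of 1 (dashed lines) on both scales, whereas *SS4*, *SS3*, *PHS2* and *LDA* pass it on the deposited scale alone.

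Because starch transcripts are known to follow the time of day, clock genes are given beside them. On the deposited scale, where 16.4% of all genes were called higher and 11.5% lower, 2 of 5 morning genes were called higher, *PRR9* (1.01) and *PRR7* (1.73), and *CCA1* (0.34) and *LHY* (0.42), the core morning pair, did not pass. Of 6 evening genes *GI* was called higher at 2.27 and *ELF4* lower at -1.10. With the length trend removed, where the shares of all genes were 7.77% and 5.21%, no morning gene was called, and *PRR9* was at 0.76 and *PRR7* at 0.83. Of the evening genes *GI* was then called higher at 1.09 and *LUX* lower at -1.21 (-0.30 on the deposited scale), and *ELF4* was at -0.20 (adjusted p = 0.544). The morning genes summed to 62.0 to 94.98 FPKM in *kaku4* and 53.4 to 61.5 FPKM in WT, and the evening genes to 19.7 to 20.6 FPKM in *kaku4* and 15.99 to 20.1 FPKM in WT. Their part in the starch values was not tested. The 4 genes with an evening element near their start (*SEX1*, *PWD*, *ISA3* and *DPE1*) had log2 fold changes of 1.72, 1.14, 0.79 and 0.29 on the deposited scale and of 0.41, 0.04, 0.09 and 0.06 with the trend removed, where none passed. A link between the element and these values was not tested.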

How the data were processed

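Reads from 6 RNA-seq libraries (3 *kaku4*, 3 WT) were aligned by the authors to TAIR10 with TopHat2 2.0.9 and summarised as FPKM with Cufflinks, both with default parameters. The deposited table holds FPKM, which are already scaled by transcript length and library size, and not counts. It was recorded under another unit because 1442 of its 24492 loci carry a mark for a missing value in every library. Those loci were left out. Depth per gene is unknown, so precision comes only from the spread between 3 libraries per genotype. The H3K27me3 samples were not analysed here.

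Genes averaging 0.1 FPKM or more were tested on log2(FPKM + 0.1) with limma 3.58.1 in R 4.3.3 (eBayes with a mean-variance trend, no covariate, Benjamini-Hochberg over 20618 genes). Calls needed an adjusted p of at most 0.05 and a log2 fold change of 1 or more in either direction, whereas the study set the same fold limit with a p limit, not stated to be adjusted, in a count model that FPKM do not allow. A length trend was removed by subtracting, in each library, a lowess curve (span 0.4) of each gene's deviation from its mean on transcript length. Within-library ratios were compared by exact permutation. Lengths, positions and promoters came from RefSeq TAIR10.1, matched by locus for all 10 genes. The script was tested on simulated data. Named genes were the 10 members, *KAKU4*, the called genes of 2 pathway lists and 13 fixed neighbours of the members in the pathway. *SS5*, *LSF2*, *ESV1*, single clock genes, *LHCB1.3*, *LAP6* and *MYB60* are outside that rule, named with their values already seen. The members and lists were chosen with earlier results of these data known.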

Additional observations from a re-analysis of the deposited data

How the results depend on the processing

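Each of the 10 log2 fold changes was recomputed under 20 alternatives, 19 planned and 1 chosen after seeing the data. Of these 200 values 166 kept direction and side of the limits, 23 lost a call, 6 gained one and 5 changed sign. The count of 4 genes called higher was 2 with a pseudocount of 1, 2 with libraries centred on their median, 7 with FPKM rescaled to the same sum, and 0 with the length trend removed, alone, with the replicate block, or in the libraries numbered 2 and 3 only (added). Leaving out 1 library gave 2 (without *kaku4* replicate 2) to 4. The count was 3 with a GC trend removed and 5 without both libraries numbered 1. Calls over all genes were summarised only as deposited, with the length trend removed alone, centred and with the same sum. Counts under the other settings have no share of all genes beside them. The count called lower was 0 under each alternative. *APL3* lost its call in 9 alternatives, *PWD* in 8, and *SEX1* and *DPE2* in 3 each, all 3 with the length trend removed. The sign changed for *DPE1* with a GC trend removed (-0.12) and in the added setting (-0.086), for *MEX1* (0.32) and *GBSS1* (0.43) with the same sum, and for *GBSS1* with quantile normalization (0.18). The log2 ratio of *BAM1* to *BAM3* differed by -0.30 to 0.052 over the libraries left out in turn and by -0.37 with the length trend removed. The *APL3* share differed by 2.87 to 3.81 points over the libraries left out in turn. That difference was 2.25 points with the length trend removed and 3.98 points without both libraries numbered 1.

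Centring moved the median of all genes by -0.20 and the same sum by 0.48, and the split of all genes into higher and lower calls was 3380 to 2371 as deposited, 2302 to 3846 centred and 6211 to 423 with the same sum. The same sum left out chloroplast and mitochondrial genes, and 20571 genes were tested there. With the same sum the median was 1.31 over the 10 genes and 0.49 over all genes. Synthesis genes called higher numbered 3 centred and 11 with the same sum, and breakdown genes 5 and 11. Centring called 2 breakdown genes lower, and with the same sum no synthesis gene was called lower. Libraries with the same replicate number had correlated deviations of 0.305, 0.082 and 0.006, highest for number 1, whose libraries also share the high chloroplast FPKM. *kaku4* replicates 2 and 3 each correlated better with another WT number, so the numbers were not taken to pair the samples throughout. With the replicate block the count stayed at 4. The study lists mapped reads per library, but counts per gene were not available. The counting error of low genes such as *PWD* and *BAM5* was not estimated.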
